A study of Mus musculus with 6 samples.

Results

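The 45 genes described here encode proteins of mitosis and chromosome segregation: mitotic cyclins and kinases, the spindle checkpoint, the kinetochore, spindle motors and microtubule proteins, condensin and the machinery of cytokinesis. They were taken as a list of gene symbols defined by function; the rule uses no measured value, but the list was drawn up with earlier results of these data known. Each symbol matched 1 of the 54446 entries of the expression table. RNA sequencing had been done on macrophages derived in culture from the bone marrow (BMDMs) of 6-week-old C57BL/6 mice, with no genetic change named. The 6 samples formed 3 groups of 2: PBS, the buffer control, 5 µM KN93 and 10 µM KN93. KN93 is a compound that inhibits CaMKII and CaMKIV, protein kinases switched on by calcium and calmodulin. The labels give no other agent, no treatment time and no growth factor. They also do not say whether the samples of a group are separate cultures or animals; p-values here therefore cover sample-to-sample spread alone, and that spread may be technical.

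A cell enters mitosis when Cdk1, bound to its cyclins, becomes active; chromosomes are then compacted by condensin, captured by spindle microtubules at their kinetochores and held under the spindle checkpoint until the anaphase-promoting complex triggers their separation. Most genes of these steps are transcribed in the G2 and M phases of the cell cycle and are low in resting cells, where the DREAM complex holds them off at promoter elements called CHR. Macrophages in marrow cultures arise from dividing precursors and can themselves divide under growth factor, and RNA of a mixed culture gives the sum over dividing and resting cells. In such bulk samples, fewer cells of a type and less RNA per cell cannot be told apart.

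All 45 genes were lower in both samples of each KN93 dose than in both PBS samples. Their summed level was 152 and 149.5 FPKM in the PBS samples, 65.7 and 59.8 FPKM at 5 µM, and 48.3 and 43.3 FPKM at 10 µM, where FPKM are fragment counts scaled by gene length and library size. At 5 µM the genes stood at a median of 34.0% of their own PBS mean, from 18.7% for Birc5 to 73.9% for Smc4. At 10 µM the median was 23.2%, from 10.1% for Nusap1 to 73.8% for Smc4. A level of 50% of PBS or less was reached by 36 of the 45 genes at 5 µM and by 41 at 10 µM, and 20% or less by 2 and by 18 genes. Among the genes tested in the table as a whole, the median stood at 101% of PBS at 5 µM and at 105% at 10 µM, and 4.8% and 8.02% of them reached 50% or less. Being lower with no overlap between the groups was itself common: among all genes detected in at least 1 sample it held for 22.8% at 5 µM and 23% at 10 µM, and among the genes tested for 33% and 32.6%.

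**Figure D1:**
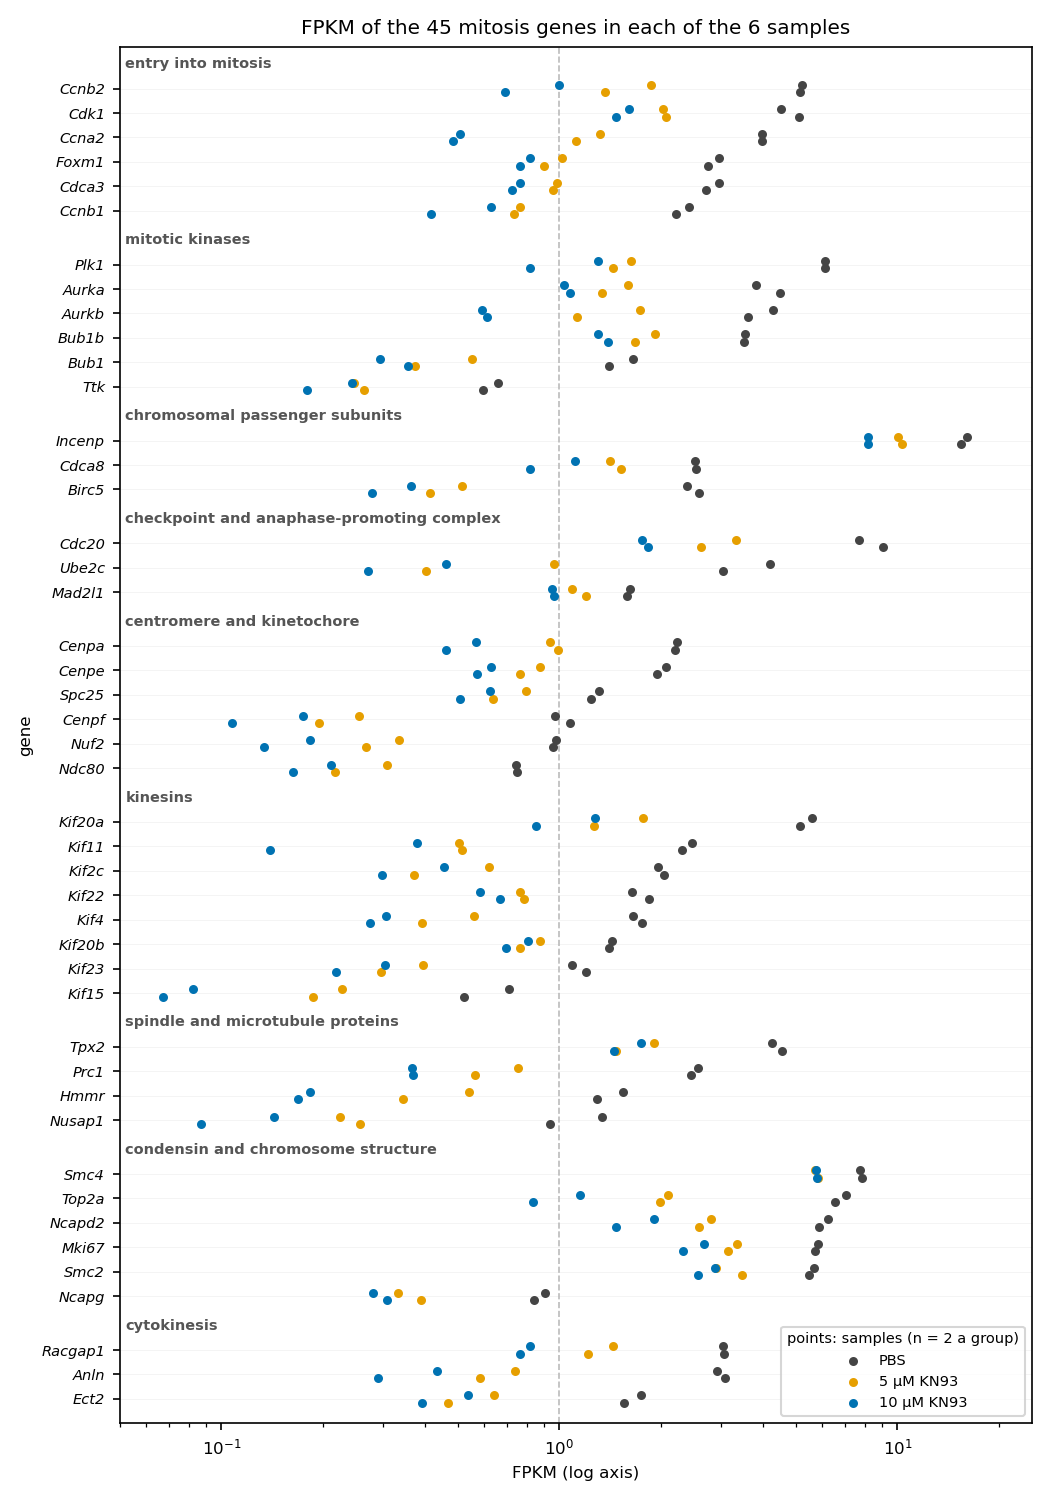
FPKM (log axis) of each of the 45 mitosis genes in each of the 6 samples, grouped by role; a point is 1 sample and the dashed line marks 1 FPKM. The PBS points lie to the right of all KN93 points for every gene, while the points of the 5 µM and 10 µM samples overlap for 8 genes.

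The samples were of like depth. In units of 1000000 fragments, the totals implied by the FPKM values were 26.9 and 28.3 in the PBS samples, 26.3 and 27.7 at 5 µM, and 24.2 and 28.4 at 10 µM. The mitosis genes were of modest level. The median of their group means was 2.51 FPKM for PBS, 0.821 FPKM for 5 µM and 0.6 FPKM for 10 µM, and at 10 µM 14 and 10 of the 45 genes reached 1 FPKM in the samples, against 39 in each PBS sample. The fragments behind one value ran from 10 (Nusap1 in 1 sample at 10 µM) to 1896, so the lowest levels carry a wide counting error. Replicate 1 was the higher sample for 29 of the 45 genes with PBS, for 33 at 5 µM and for 34 at 10 µM, against 46.5%, 51.45% and 50.91% of all genes tested. A count over them is not a count of independent observations.

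Tests were made with limma on log2(FPKM + 1) for the 12722 genes that reached 1 FPKM in 2 or more samples, and an adjusted p below is limma's, with Benjamini-Hochberg adjustment over those genes, unless voom is named. The log2 changes on that scale understate the change of low genes. Of the 45 mitosis genes, 38 were tested; Ttk, Cenpf, Ndc80, Nuf2, Kif15, Nusap1 and Ncapg were under that level. Of the 38, 19 passed only through their PBS samples and so had to be lower with KN93, which is why the counts that follow are a description and no support. These 19 were Ccnb1, Foxm1, Cdca3, Bub1, Birc5, Ube2c, Cenpa, Cenpe, Spc25, Kif11, Kif20b, Kif23, Kif2c, Kif4, Kif22, Prc1, Hmmr, Anln and Ect2. For them the limma calls and adjusted p against PBS, given by role below, are likewise a description and no support. At 5 µM, 37 of the 38 were called lower, where 15.4% of all genes tested were; Mad2l1 missed the threshold. At 10 µM all 38 tested genes were called lower, where 22% of all genes tested were. Because the filter leaves 7 genes out, 2 further tests took in all 45. Without the filter limma called 41 of 45 lower at 5 µM, against 5.11% of all genes, and 45 of 45 at 10 µM, against 9.12%. The voom method of limma on fragments recovered from the FPKM, for 21269 genes with at least 10 fragments in all and added after the data were seen, called all 45 lower at both doses, against 12.2% of all genes at 5 µM and 18.3% at 10 µM. Its largest adjusted p over the 45 genes was 0.0124 at 5 µM (Spc25) and 0.00119 at 10 µM (Spc25). Both doses were set against the same PBS samples.

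Genes of mitosis are known for CHR and CCAAT elements in their promoters, and 5 promoters are shown so that these can be seen in place: in each of 5 roles, the gene with the highest PBS level among those with an entry in the promoter table used. Each sequence is the 250 bases before the RefSeq start (build GRCm38.p6), 5′ to 3′ on the strand of the gene, with capitals on the CHR word TTTGAA, its variant TTCGAA and the CCAAT box CCAAT on either strand. Ccnb2 lies at chr9:70421555-70421804 (minus strand), Plk1 at chr7:122159185-122159434 (plus), Cenpa at chr5:30666636-30666885 (plus), Kif11 at chr19:37376132-37376381 (plus) and Top2a at chr11:99024190-99024439 (minus).
Ccnb2: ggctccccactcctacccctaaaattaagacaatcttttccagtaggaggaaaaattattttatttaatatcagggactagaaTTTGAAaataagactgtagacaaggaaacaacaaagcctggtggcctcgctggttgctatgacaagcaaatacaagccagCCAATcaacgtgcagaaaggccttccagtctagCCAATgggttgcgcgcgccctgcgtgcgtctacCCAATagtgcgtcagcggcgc
Plk1: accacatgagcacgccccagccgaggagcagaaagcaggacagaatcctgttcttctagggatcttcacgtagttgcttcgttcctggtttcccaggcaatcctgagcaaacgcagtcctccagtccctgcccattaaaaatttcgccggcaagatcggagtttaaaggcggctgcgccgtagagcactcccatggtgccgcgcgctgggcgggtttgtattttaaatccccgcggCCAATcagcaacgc
Cenpa: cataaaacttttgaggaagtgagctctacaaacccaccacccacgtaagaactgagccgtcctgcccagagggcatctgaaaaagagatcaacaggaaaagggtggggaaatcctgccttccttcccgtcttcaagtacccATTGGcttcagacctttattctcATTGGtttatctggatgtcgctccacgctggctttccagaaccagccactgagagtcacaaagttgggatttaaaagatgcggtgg
Kif11: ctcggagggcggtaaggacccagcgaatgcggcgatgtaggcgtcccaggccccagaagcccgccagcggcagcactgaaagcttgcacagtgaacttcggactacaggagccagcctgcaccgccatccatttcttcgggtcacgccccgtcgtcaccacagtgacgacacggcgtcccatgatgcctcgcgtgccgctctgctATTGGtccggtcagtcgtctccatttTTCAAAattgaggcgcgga
Top2a: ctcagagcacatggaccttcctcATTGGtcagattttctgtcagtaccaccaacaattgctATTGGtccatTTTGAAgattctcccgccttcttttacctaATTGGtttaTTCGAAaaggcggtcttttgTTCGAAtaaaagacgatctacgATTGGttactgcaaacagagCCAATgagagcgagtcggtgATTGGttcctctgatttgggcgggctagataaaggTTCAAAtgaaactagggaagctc

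Positions are counted from 1 at the start base and backwards from −1 before it. Ccnb2, whose product is cyclin B2, held CCAAT boxes at −87 to −83, −54 to −50 and −21 to −17, a CHR word at −167 to −162, and a further CHR word at 5 to 10, beyond the sequence shown. Plk1 had its CHR word at 31 to 36 and Cenpa at 17 to 22, also beyond the sequence shown, with CCAAT boxes before the start in both. In Kif11 a CHR word at −19 to −14 followed a CCAAT box at −45 to −41. Top2a held 6 CCAAT boxes, CHR words at −179 to −174 and −23 to −18, and 2 copies of the variant between them.

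Of the 45 genes, 38 had an entry in the table of RefSeq promoters, which spans 250 bases before to 50 after the start; Ccna2, Foxm1, Aurkb, Incenp, Kif20a, Tpx2 and Smc4 had none. The CHR word TTTGAA stood on either strand in 31 of the 38 (81.6%), against 18.1% of the 27025 genes of the table. In the stretch from 100 bases before to 50 after the start it stood in 29 of 38 (76.3%), against 8.08% of all genes. The CCAAT box was found in 29 of 38 (76.3%), against 37.9%, and both words together in 26 (68.4%), against 7.12%. The variant TTCGAA was in 3 (7.89%), against 1.57%. E2F-type words, searched as the word TTCCCGC, the word TTGGCGC, the word TTCGCGC and the word TTGCCGC, were in 8 of 38 (21.1%), against 9.69%. TTGGCGC can share bases with a CCAAT box on the other strand and did so in Ccnb1 and Ect2. These are matches of letters, given as a description with no test.

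**Figure D2:**
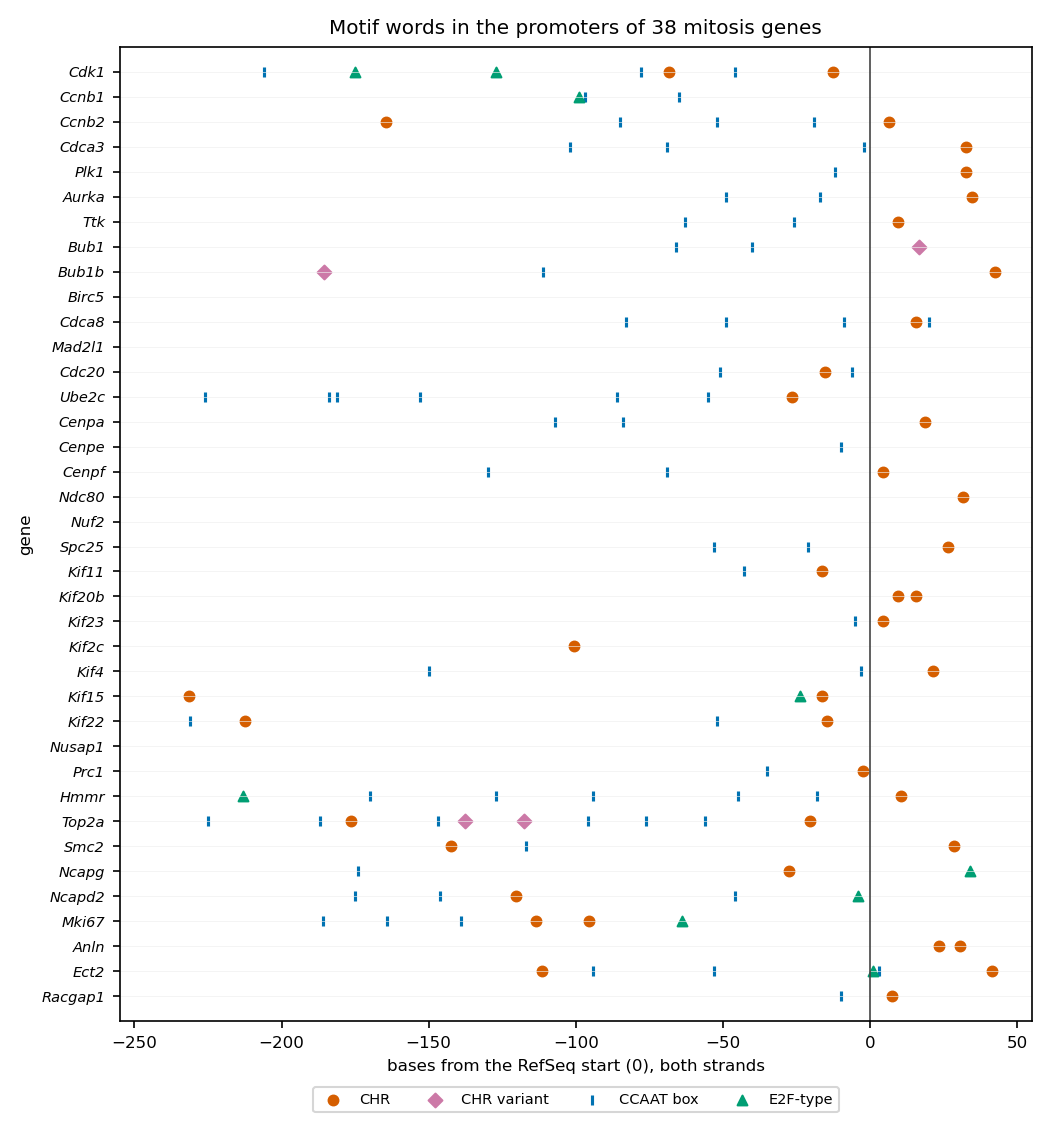
Positions of the CHR word, its variant, the CCAAT box and E2F-type words, in bases from the RefSeq start, in the promoters of 38 mitosis genes; each mark is 1 match on either strand. In 28 of the 38 genes a CHR word lies between 60 bases before and 50 after the start, a window for which the share of all genes was not counted. From 100 bases before to 50 after the start it lies in 29 of 38 (76.3%), against 8.08% of all genes.

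Entry into mitosis. The 6 genes of this step fell at both doses, to between 30.8% and 42.5% of PBS at 5 µM and between 12.5% and 31.9% at 10 µM, and all 6 were called in both comparisons. Cdk1, the kinase that drives the cell into mitosis, had 4.52 and 5.13 FPKM in the PBS samples, 2.03 and 2.07 FPKM at 5 µM and 1.61 and 1.47 FPKM at 10 µM. The KN93 samples lay well under the PBS samples, with a log2 change at 10 µM of −1.20 ± 0.08 (SE), adjusted p = 0.000169. Ccna2, cyclin A2 of S and G2 phase, had 3.97 and 3.97 FPKM with PBS, 1.32 and 1.12 FPKM with 5 µM KN93 and 0.507 and 0.483 FPKM with 10 µM KN93. It fell further than Cdk1 in percent of PBS, and no 2 groups overlapped (10 µM against PBS −1.73 ± 0.08 (SE), adjusted p = 6.41e-05). The mitotic cyclins Ccnb1 and Ccnb2 were both lower. Ccnb1 had 2.41 and 2.22 FPKM in the PBS samples, 0.765 and 0.736 FPKM at 5 µM and 0.628 and 0.418 FPKM at 10 µM. Ccnb2 had 5.22 and 5.16 FPKM with PBS, 1.86 and 1.37 FPKM with 5 µM KN93 and 1.0 and 0.69 FPKM with 10 µM KN93. Relative to PBS at 10 µM, the log2 change was −1.13 ± 0.11 (SE), adjusted p = 0.000561 for Ccnb1 and −1.75 ± 0.13 (SE), adjusted p = 0.000225 for Ccnb2. Foxm1, a transcription factor of G2 and M phase genes, had 2.97 and 2.75 FPKM in the PBS samples, 1.02 and 0.903 FPKM at 5 µM and 0.82 and 0.765 FPKM at 10 µM, so that most of its fall was present at 5 µM (−0.98 ± 0.08 (SE), adjusted p = 0.00115). Cdca3, which promotes mitotic entry through turnover of the Cdk1 inhibitor Wee1, stood at 34% of PBS at 5 µM and 26.2% at 10 µM.

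Mitotic kinases. Plk1, the polo-like kinase of centrosome maturation and spindle assembly, had 6.1 and 6.11 FPKM in the PBS samples, 1.62 and 1.44 FPKM at 5 µM and 1.3 and 0.817 FPKM at 10 µM. The lower dose took it to 25.1% of PBS (log2 change −1.49 ± 0.12 (SE), adjusted p = 0.000995), and the samples at 10 µM differed more from each other than those of the other groups. Aurka, the Aurora kinase of centrosomes and spindle poles, had 3.82 and 4.5 FPKM with PBS, 1.59 and 1.34 FPKM with 5 µM KN93 and 1.03 and 1.07 FPKM with 10 µM KN93. It was called at 5 µM (−1.06 ± 0.10 (SE), adjusted p = 0.0014) and at 10 µM (−1.33 ± 0.10 (SE), adjusted p = 0.000242). The checkpoint kinases gave a range of falls. Bub1, which marks kinetochores for the checkpoint, had 1.65 and 1.4 FPKM in the PBS samples, 0.549 and 0.373 FPKM at 5 µM and 0.294 and 0.356 FPKM at 10 µM. Bub1b, the gene of BubR1 in the inhibitor complex of the checkpoint, had 3.54 and 3.51 FPKM with PBS, 1.92 and 1.67 FPKM with 5 µM KN93 and 1.3 and 1.39 FPKM with 10 µM KN93. Bub1b thus kept 50.9% of its PBS level at 5 µM and 38.2% at 10 µM, the highest share of the 6 kinase genes at each dose. Ttk, the Mps1 kinase that starts checkpoint signalling, was too low for the limma test and had 0.657 and 0.596 FPKM in the PBS samples, 0.247 and 0.264 FPKM at 5 µM and 0.244 and 0.179 FPKM at 10 µM. By voom its log2 change at 10 µM was −1.63 ± 0.26 (SE), adjusted p = 0.000593.

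Chromosomal passenger complex. This complex of the kinase Aurkb with Incenp, Birc5 and Cdca8 corrects faulty attachments of microtubules and acts again in cytokinesis. Its 4 genes were all called lower at both doses but kept unequal shares of their level. Aurkb had 4.28 and 3.61 FPKM in the PBS samples, 1.73 and 1.13 FPKM at 5 µM and 0.59 and 0.61 FPKM at 10 µM. Birc5, survivin, had 2.38 and 2.58 FPKM with PBS, 0.513 and 0.414 FPKM with 5 µM KN93 and 0.365 and 0.28 FPKM with 10 µM KN93, and its level at 5 µM was the lowest share of PBS among the 45 genes (−1.25 ± 0.10 (SE), adjusted p = 0.000917). Incenp, the scaffold, had 16.1 and 15.5 FPKM in the PBS samples, 10.1 and 10.3 FPKM at 5 µM and 8.19 and 8.2 FPKM at 10 µM. It was the most highly expressed of the 45 genes with PBS and kept 52% of that level at 10 µM, with samples of a group close to each other (log2 change −0.87 ± 0.05 (SE), adjusted p = 9.43e-05). Cdca8, borealin, kept 58% at 5 µM and 38.2% at 10 µM. Its call at 5 µM (−0.52 ± 0.10 (SE), adjusted p = 0.0137) was lost when either PBS sample or either 5 µM sample was left out, with adjusted p from 0.0546 to 0.0716.

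Spindle checkpoint and anaphase-promoting complex. Cdc20, the activator of the anaphase-promoting complex that the checkpoint restrains, had 7.72 and 9.07 FPKM in the PBS samples, 3.33 and 2.63 FPKM at 5 µM and 1.75 and 1.83 FPKM at 10 µM. Its fall was called at 5 µM (−1.24 ± 0.11 (SE), adjusted p = 0.00134) and at 10 µM (−1.75 ± 0.11 (SE), adjusted p = 0.000154). Ube2c, the ubiquitin-conjugating enzyme of that complex, had 4.2 and 3.04 FPKM with PBS, 0.964 and 0.402 FPKM with 5 µM KN93 and 0.461 and 0.271 FPKM with 10 µM KN93. It kept 10.1% of its PBS level at 10 µM, with a wide spread in every group (−1.75 ± 0.21 (SE), adjusted p = 0.00126). Mad2l1, the checkpoint protein that binds Cdc20, changed least of the 3, with 1.61 and 1.58 FPKM in the PBS samples, 1.09 and 1.2 FPKM at 5 µM and 0.952 and 0.962 FPKM at 10 µM. The groups did not overlap, but at 5 µM the change of −0.28 ± 0.08 (SE), adjusted p = 0.0512 missed the threshold, while voom called it (−0.49 ± 0.11 (SE), adjusted p = 0.00785). At 10 µM limma called Mad2l1 (−0.41 ± 0.08 (SE), adjusted p = 0.00921), a call lost without PBS replicate 1 (adjusted p = 0.0557).

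Centromere and kinetochore. Cenpa, the histone H3 variant that marks the centromere, had 2.23 and 2.2 FPKM in the PBS samples, 0.939 and 0.991 FPKM at 5 µM and 0.565 and 0.463 FPKM at 10 µM. The log2 change against PBS was −0.71 ± 0.09 (SE), adjusted p = 0.0036 at 5 µM and −1.09 ± 0.09 (SE), adjusted p = 0.000322 at 10 µM. Its call between the doses (−0.38 ± 0.09 (SE), adjusted p = 0.0345) was lost with any 1 sample left out (adjusted p from 0.0662 to 0.14). Cenpe, a kinetochore motor that carries chromosomes to the spindle equator, had 2.07 and 1.95 FPKM with PBS, 0.876 and 0.766 FPKM with 5 µM KN93 and 0.629 and 0.572 FPKM with 10 µM KN93. Ndc80, Nuf2 and Spc25 encode subunits of the complex that binds microtubule ends. Spc25 had 1.31 and 1.24 FPKM in the PBS samples, 0.798 and 0.634 FPKM at 5 µM and 0.623 and 0.508 FPKM at 10 µM, and kept more of its level than the other members of this group. Its call at 5 µM (−0.41 ± 0.10 (SE), adjusted p = 0.0338) was lost when either PBS or either 5 µM sample was left out (adjusted p from 0.0716 to 0.153), and its call at 10 µM (0.00795) when PBS replicate 1 was (0.0504). Nuf2 and Ndc80, not tested by limma, stood at 16.3% and 25% of PBS at 10 µM. Their log2 changes by voom were −2.67 ± 0.25 (SE), adjusted p = 1.38e-05 for Nuf2 and −2.06 ± 0.25 (SE), adjusted p = 9.03e-05 for Ndc80. Cenpf, a large protein of the outer kinetochore, had 0.968 and 1.07 FPKM in the PBS samples, 0.256 and 0.194 FPKM at 5 µM and 0.174 and 0.107 FPKM at 10 µM (voom log2 change at 10 µM −2.96 ± 0.22 (SE), adjusted p = 2.74e-06).

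Mitotic kinesins. The 8 motors of this group kept between 21.4% and 58.1% of their PBS level at 5 µM and between 10.8% and 53.2% at 10 µM. Kif11, the motor that pushes spindle poles apart, had 2.47 and 2.3 FPKM in the PBS samples, 0.504 and 0.517 FPKM at 5 µM and 0.378 and 0.139 FPKM at 10 µM. The samples at 10 µM differed from each other by more than those of the other groups, and both lay under all samples of the lower dose (10 µM against PBS −1.43 ± 0.12 (SE), adjusted p = 0.000404). Kif20a, which brings the passenger complex to the central spindle, had 5.59 and 5.15 FPKM with PBS, 1.77 and 1.26 FPKM with 5 µM KN93 and 1.28 and 0.854 FPKM with 10 µM KN93, with the KN93 doses overlapping. Kif23, the motor of the centralspindlin complex, and Kif2c, which takes apart microtubules at the centromere, stood at 22.8% and 18.9% of PBS at 10 µM. Kif4, a chromosome-bound motor, had 1.65 and 1.75 FPKM in the PBS samples, 0.558 and 0.393 FPKM at 5 µM and 0.308 and 0.275 FPKM at 10 µM. Kif22, another chromosome-bound motor, kept 35.9% at 10 µM (−0.75 ± 0.09 (SE), adjusted p = 0.00151). Kif15, which can stand in for Kif11 at the spindle, was not tested by limma and had 0.708 and 0.522 FPKM with PBS, 0.227 and 0.187 FPKM with 5 µM KN93 and 0.0826 and 0.0671 FPKM with 10 µM KN93, the lowest level of the 45 genes in each group (voom −3.05 ± 0.32 (SE), adjusted p = 3.16e-05 at 10 µM). Kif20b, a motor of cytokinesis, changed least, with 1.43 and 1.4 FPKM in the PBS samples, 0.878 and 0.762 FPKM at 5 µM and 0.809 and 0.694 FPKM at 10 µM. The call of Kif20b at 5 µM (−0.41 ± 0.09 (SE), adjusted p = 0.0248) was lost without either PBS or either 5 µM sample (adjusted p from 0.0691 to 0.118), and that at 10 µM (0.00941) without PBS replicate 1 (0.0552). The call of Kif23 at 5 µM was lost without PBS replicate 2 (adjusted p = 0.0586). Recovered fragments of Kif11, Kif20a and Incenp are approximate, since their annotated lengths did not turn the FPKM into whole fragments.

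Spindle and microtubule proteins. Tpx2, which activates Aurora A on the spindle, had 4.24 and 4.57 FPKM in the PBS samples, 1.9 and 1.47 FPKM at 5 µM and 1.74 and 1.45 FPKM at 10 µM. Its level was lower with KN93 (−1.01 ± 0.11 (SE), adjusted p = 0.00222 at 5 µM) and overlapped between the doses. Prc1, the protein that bundles the microtubules of the central spindle, had 2.57 and 2.45 FPKM with PBS, 0.752 and 0.561 FPKM with 5 µM KN93 and 0.367 and 0.368 FPKM with 10 µM KN93 (−1.36 ± 0.10 (SE), adjusted p = 0.000234 at 10 µM against PBS). No groups of Prc1 overlapped, but the change between the doses was not called (−0.27 ± 0.10 (SE), adjusted p = 0.108). Hmmr, a microtubule-bound protein of spindle assembly, had 1.55 and 1.29 FPKM in the PBS samples, 0.538 and 0.345 FPKM at 5 µM and 0.183 and 0.169 FPKM at 10 µM. It was called at both doses (0.00843 and 0.00127), at 5 µM not without PBS replicate 1 (adjusted p = 0.0605). Nusap1, which stabilises spindle microtubules near chromosomes, was too low for limma and had 1.34 and 0.939 FPKM with PBS, 0.225 and 0.258 FPKM with 5 µM KN93 and 0.143 and 0.0868 FPKM with 10 µM KN93. Its log2 change by voom was −2.19 ± 0.31 (SE), adjusted p = 0.000514 at 5 µM and −3.35 ± 0.41 (SE), adjusted p = 9.80e-05 at 10 µM.

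Condensin and chromosome structure. Top2a, the topoisomerase that untangles sister DNA, had 7.05 and 6.54 FPKM in the PBS samples, 2.1 and 1.99 FPKM at 5 µM and 1.15 and 0.837 FPKM at 10 µM. On the log2(FPKM + 1) scale it had the largest change at 10 µM among the 38 genes tested (−1.97 ± 0.10 (SE), adjusted p = 6.69e-05), with no overlap between any 2 groups. That ranking depends on the scale: Top2a kept 14.6% of its PBS level, and lower tested genes such as Ube2c and Kif11 kept less (10.1% and 10.8%). Mki67, the Ki-67 protein that coats mitotic chromosomes and serves as a marker of cycling cells, had 5.82 and 5.69 FPKM with PBS, 3.36 and 3.15 FPKM with 5 µM KN93 and 2.68 and 2.31 FPKM with 10 µM KN93. It kept 56.5% of its PBS level at 5 µM and 43.3% at 10 µM, with close replicates. Smc2 and Smc4 form the core of both condensins. Smc4 had 7.75 and 7.84 FPKM in the PBS samples, 5.7 and 5.83 FPKM at 5 µM and 5.73 and 5.77 FPKM at 10 µM, so that the lower dose gave the whole of its fall (−0.38 ± 0.05 (SE), adjusted p = 0.00389 at 5 µM). Smc2 kept 57.4% at 5 µM and 49% at 10 µM (−0.82 ± 0.09 (SE), adjusted p = 0.000919). Ncapd2, a subunit of condensin I alone, had 6.22 and 5.86 FPKM with PBS, 2.8 and 2.58 FPKM with 5 µM KN93 and 1.9 and 1.47 FPKM with 10 µM KN93, a larger fall than in the core subunits in percent of PBS. Ncapg, also of condensin I, kept 33.8% at 10 µM (voom −1.60 ± 0.19 (SE), adjusted p = 7.36e-05).

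Cytokinesis. Anln, the actin-binding scaffold of the contractile ring, had 2.93 and 3.09 FPKM in the PBS samples, 0.737 and 0.581 FPKM at 5 µM and 0.434 and 0.291 FPKM at 10 µM, and the fall was called at both doses (−1.27 ± 0.10 (SE), adjusted p = 0.000969 at 5 µM and −1.56 ± 0.10 (SE), adjusted p = 0.000172 at 10 µM). Racgap1, the partner of Kif23 in centralspindlin, had 3.05 and 3.08 FPKM with PBS, 1.44 and 1.22 FPKM with 5 µM KN93 and 0.818 and 0.766 FPKM with 10 µM KN93. It was called at 10 µM against PBS (−1.18 ± 0.08 (SE), adjusted p = 0.00022). Its call between the doses (−0.38 ± 0.08 (SE), adjusted p = 0.0314) was lost with any 1 sample left out (adjusted p from 0.0697 to 0.131). Ect2, the exchange factor that activates RhoA at the equator, had 1.75 and 1.55 FPKM in the PBS samples, 0.641 and 0.469 FPKM at 5 µM and 0.538 and 0.393 FPKM at 10 µM, with overlap between the doses and calls against PBS at each (0.0064 at 5 µM and 0.00204 at 10 µM).

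**Figure D3:**
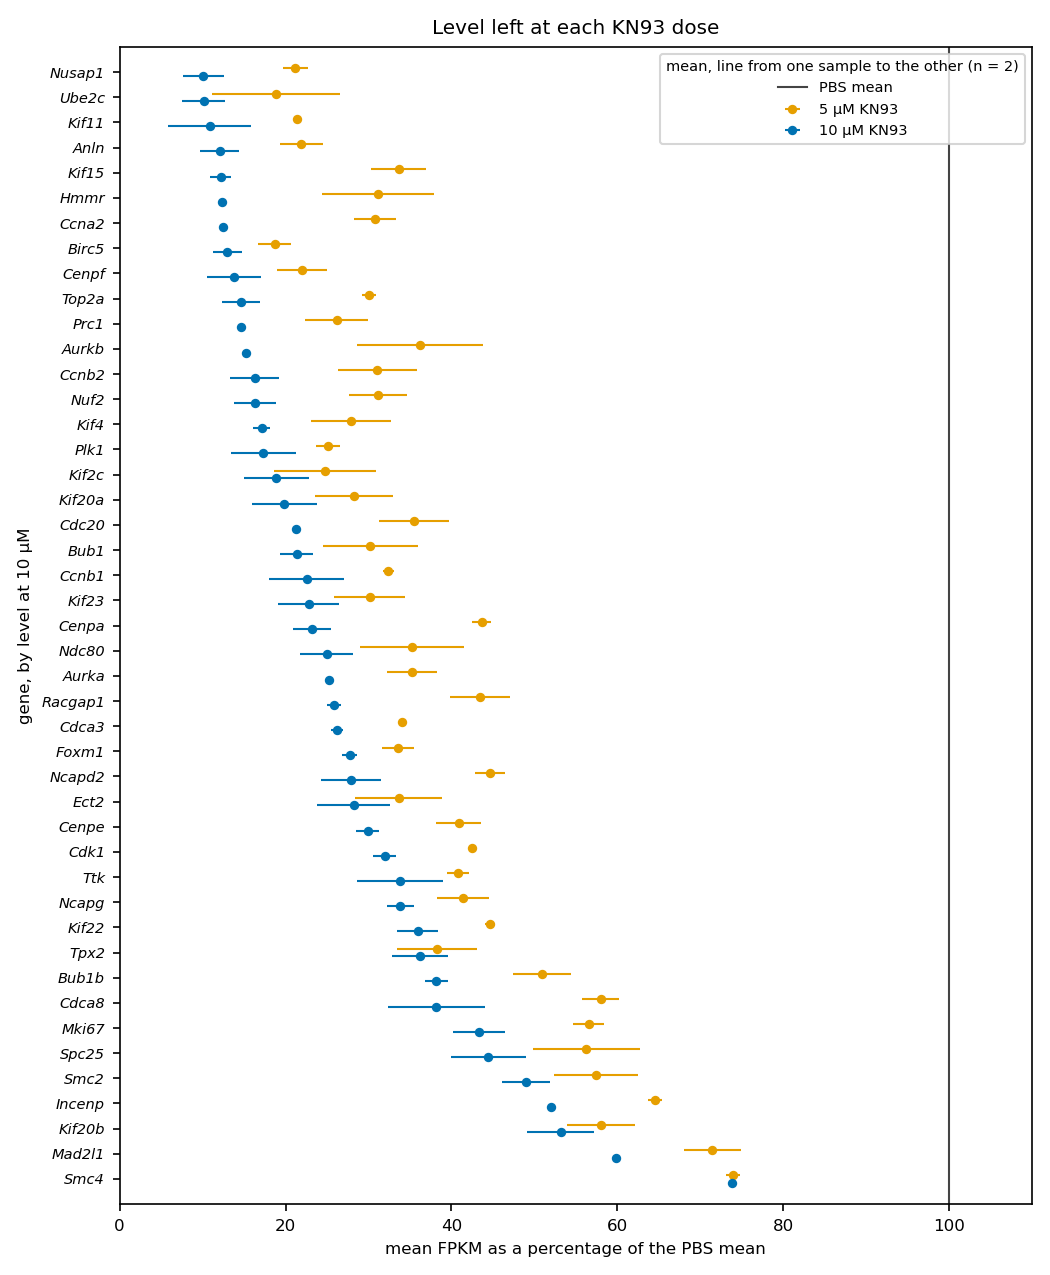
Mean FPKM of each of the 45 mitosis genes at 5 µM and 10 µM KN93 as a percentage of its PBS mean, ordered by the level at 10 µM; a line joins the values of the 2 samples of a dose. Nusap1, Ube2c and Kif11 keep the least at 10 µM (10.1%, 10.1% and 10.8%) and Smc4 the most (73.8%).

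The higher dose was then set against the lower one. Of the 45 genes, 37 were lower in both 10 µM samples than in both 5 µM samples and none was higher in both, where 17.3% of all detected genes and 26% of those tested were lower without overlap. The other 8, Ube2c, Kif20a, Kif20b, Kif23, Kif2c, Tpx2, Smc4 and Ect2, overlapped between the doses. The level at 10 µM was a median of 70.2% of that at 5 µM, from 36.2% for Kif15 to 99.8% for Smc4. limma called 10 of the 38 tested genes lower at 10 µM, where 8.5% of all genes tested were: Ccna2, Ccnb2, Aurkb, Incenp, Cdc20, Cenpa, Top2a, Ncapd2, Mki67 and Racgap1. For Ccna2 (0.507 and 0.483 FPKM at 10 µM against 1.32 and 1.12 FPKM at 5 µM) the log2 change was −0.57 ± 0.08 (SE), adjusted p = 0.00889, and it stayed under the threshold with any 1 sample left out (adjusted p at most 0.0495). For Top2a (1.15 and 0.837 FPKM at 10 µM against 2.1 and 1.99 FPKM at 5 µM) it was −0.61 ± 0.10 (SE), adjusted p = 0.0111, a call lost without either 5 µM sample (adjusted p = 0.0593 and 0.0552). For Incenp it was −0.28 ± 0.05 (SE), adjusted p = 0.0138, and leaving out any 1 of the 4 KN93 samples took its adjusted p to between 0.0506 and 0.0845. Aurkb (0.59 and 0.61 FPKM at 10 µM against 1.73 and 1.13 FPKM at 5 µM) had −0.59 ± 0.14 (SE), adjusted p = 0.0372, and Cdc20 (1.75 and 1.83 FPKM at 10 µM against 3.33 and 2.63 FPKM at 5 µM) had −0.51 ± 0.11 (SE), adjusted p = 0.0305. The other 5 had adjusted p from 0.0249 to 0.0464, and each of the 9 genes besides Ccna2 lost its call when some single sample was left out. The count of 10 fell to 3 without the filter, against 2% of all genes, to 4 when only the KN93 samples entered the fit and to between 1 and 5 with 1 sample left out. voom on recovered fragments called 18 of the 45, against 7.37% of all genes.

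The fall between PBS and 5 µM was larger than that between 5 µM and 10 µM on the log2(FPKM + 1) scale for all 38 genes tested. That scale shrinks the second step of low genes, and the share of all genes with this order of steps was not counted. The 38 of 38 is therefore a description and no support. A test of the difference between the steps called 6 of the 38, where 5.36% of all genes tested were called: Foxm1, Cdca3, Plk1, Birc5, Tpx2 and Anln, each with a smaller second step on that scale. All KN93 values of Cdca3, Birc5 and Anln were under 1 FPKM, where the scale shrinks the second step, so the count is a description and no support. The differences ran from 0.79 (Cdca3) to 1.18 (Plk1), with adjusted p from 0.0337 to 0.0471. Over all genes the call count of this test went to 0 without 5 µM replicate 1 and to 2 without 5 µM replicate 2, against 682 with all samples. All 6 calls were lost without the filter, where 45 of 30856 genes were called. The added voom fit called 4 of the 45 mitosis genes (Foxm1, Birc5, Tpx2 and Anln), against 1141 of all 21269 genes in that fit. The 4 are among the 6 and are no support.

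Related gene lists were counted in the same fit, in which 15.4% of all genes tested were called lower and 15.1% higher at 5 µM, and 22% lower and 28.5% higher at 10 µM. Their genes passed the same filter, so a low gene that passed only through its PBS samples had to be lower with KN93. Such genes were not counted apart, and the limma counts and medians of the lists are a description and no support. Of 68 other genes of mitosis, 40 were tested; 30 were called lower and 2 higher at 5 µM, and 32 lower and 3 higher at 10 µM, with a median log2 change of −0.65 and −0.77, against 0.01 and 0.05 over all genes tested. With voom all 68 were tested, and 56 were lower and 2 higher at 5 µM and 60 lower and 3 higher at 10 µM, where 12.2% of all genes were lower and 9.52% higher at 5 µM and 18.3% lower and 16.1% higher at 10 µM. Stmn1, stathmin, which destabilises microtubules, had 8.0 and 8.98 FPKM in the PBS samples, 3.38 and 2.61 FPKM at 5 µM and 2.41 and 2.31 FPKM at 10 µM (−1.5 ± 0.11 (SE), adjusted p = 0.000225 at 10 µM). Tubb5, a beta-tubulin, had 217 and 203 FPKM with PBS, 152 and 153 FPKM with 5 µM KN93 and 105 and 92.7 FPKM with 10 µM KN93. Ncapg2, a subunit of condensin II, fell by 0.76 at 10 µM (adjusted p = 0.000224). Spdl1, which brings dynein to kinetochores, went the other way, with 2.22 and 1.91 FPKM in the PBS samples, 3.59 and 3.38 FPKM at 5 µM and 4.66 and 4.43 FPKM at 10 µM (0.86 ± 0.08 (SE), adjusted p = 0.00046 at 10 µM).

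Of 42 genes of DNA replication, which takes place in S phase, 39 were tested; 24 were called lower and 3 higher at 5 µM, and 29 lower and 3 higher at 10 µM, with median log2 changes of −0.42 and −0.50. Mcm5, a subunit of the replicative helicase, had 15.1 and 12.9 FPKM in the PBS samples, 5.76 and 5.29 FPKM at 5 µM and 3.63 and 3.09 FPKM at 10 µM. Tk1, thymidine kinase, had 3.98 and 3.52 FPKM with PBS, 1.12 and 0.923 FPKM with 5 µM KN93 and 0.485 and 0.434 FPKM with 10 µM KN93. Rrm1, the large subunit of ribonucleotide reductase, fell by 1.13 at 10 µM (adjusted p = 0.00011), whereas Rfc2, a subunit of the clamp loader, rose by 0.93 (0.000218). The summed FPKM of this list was 303 and 292 in the PBS samples, 242 and 237 at 5 µM, and 228 and 237 at 10 µM.

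The last lists hold the anaphase-promoting complex, cohesin, DREAM with the RB and E2F families, and kinesins of transport. They are to be read against the same shares of all genes tested. The list of the anaphase-promoting complex holds 15 genes, its core subunits and Fzr1, an activator of the complex like Cdc20. None was called lower and 1 higher at 5 µM, and 2 were lower and 1 higher at 10 µM. The median log2 changes were 0.04 and −0.02. Anapc7 rose to 11.5 and 12.3 FPKM at 10 µM, against 9.66 and 9.36 FPKM with PBS (0.30 ± 0.05 (SE), adjusted p = 0.00605), and Anapc15 and Anapc13 fell by 0.30 and 0.22 (adjusted p = 0.0239 and 0.0347). Of 10 cohesin genes, whose ring holds sister chromatids together, 3 were called lower and none higher at either dose, with medians of −0.10 and −0.12. Rad21, the subunit cut at anaphase, fell by 0.24 at 10 µM (adjusted p = 0.00652), Smc1a by 0.23 (0.00987) and Pds5b by 0.22 (0.0327), while Wapl, which releases cohesin, was not called (0.07 ± 0.06 (SE), adjusted p = 0.423). Of 18 genes of the DREAM complex and the RB and E2F families, 16 were tested. At 5 µM 4 were lower and 1 higher, with a median of −0.10. At 10 µM 5 were lower and 2 higher, with a median of −0.14. Of the genes named next, E2f1, E2f6 and E2f8 are not subunits of DREAM. E2f8, a repressor of the E2F family, had 1.39 and 1.15 FPKM in the PBS samples, 0.467 and 0.331 FPKM at 5 µM and 0.243 and 0.11 FPKM at 10 µM, and E2f1 had 13.3 and 12.7 FPKM with PBS, 12.1 and 12.4 FPKM with 5 µM KN93 and 9.67 and 10.5 FPKM with 10 µM KN93. Tfdp2, a partner of E2F proteins, fell by 0.59 at 10 µM (adjusted p = 0.00353), and E2f6 rose by 0.35 (0.00983). The list of transport kinesins holds 22 genes, but not all of them encode transport motors. Kif2a is a close relative of Kif2c, which is counted above with the mitotic kinesins, and Kifap3 is a kinesin-associated protein. Of the 22 genes, 18 were tested. At 5 µM 2 were lower and 5 higher, with a median of 0.12. At 10 µM 4 were lower and 5 higher, with a median of 0.14. The shares of transport kinesins called lower were thus near those of all genes tested. Kif1c rose to 49.3 and 48.4 FPKM at 10 µM, against 36.0 and 36.3 FPKM with PBS (0.42 ± 0.04 (SE), adjusted p = 0.000657), Kif2a rose by 0.51 (adjusted p = 0.0013) and Kifc3 fell by 0.58 (0.00254). These counts stand side by side as a description; no list was tested against another.

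**Figure D4:**
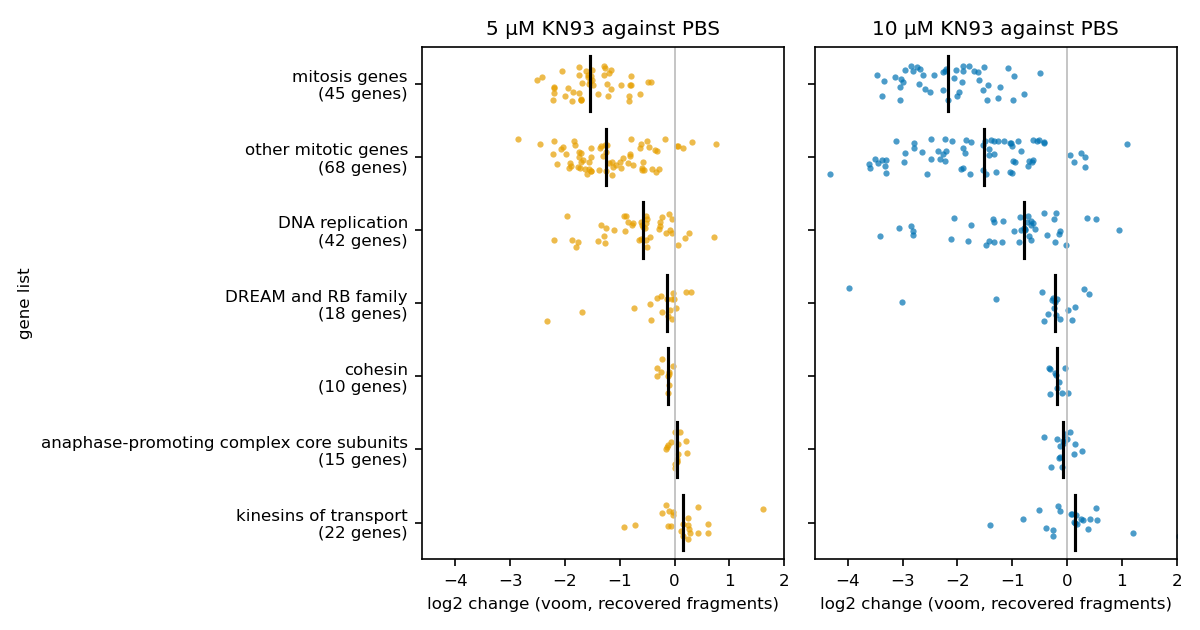
Log2 change by voom on recovered fragments at 5 µM (left) and 10 µM KN93 (right) against PBS for the 45 mitosis genes and 6 related lists; a point is 1 gene and the black bar the median of the list. The mitosis genes all lie under 0 in both panels, while the anaphase-promoting complex, cohesin and transport kinesins centre near 0.

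Markers of the cell types that a marrow culture could hold moved in the same samples. The summed FPKM of 8 macrophage markers was 18427 and 17901 in the PBS samples, 14721 and 14259 at 5 µM and 8261 and 9100 at 10 µM, and 5 of the 8 were called lower and 2 higher at 5 µM, and 6 lower and 1 higher at 10 µM. Over all genes tested, 15.4% were called lower at 5 µM and 22% at 10 µM. The limit that the filter sets on counts of related lists holds for the marker counts too. Of 11 fibroblast and stroma markers, 9 were tested, and 6 were called lower at 5 µM and 7 at 10 µM. Their sum was 2250 and 2188 FPKM with PBS, 853 and 742 FPKM at 5 µM and 557 and 508 FPKM at 10 µM. Of 11 markers of neutrophils and their precursors, 6 were tested, and 5 were lower at 5 µM and 6 at 10 µM. Their sum was 137 and 136 FPKM with PBS, 63.3 and 66.2 FPKM at 5 µM and 14.6 and 17.5 FPKM at 10 µM. Of 4 megakaryocyte and platelet markers, 2 were tested, and 2 were called lower at each dose. The 4 markers summed to 923 and 1030 FPKM with PBS, 393 and 309 FPKM at 5 µM and 120 and 121 FPKM at 10 µM. Markers of mast cells, B cells, endothelium, T and NK cells, dendritic cells, erythroid cells and haematopoietic progenitors summed to at most 7.89 FPKM in any sample. Such sums weigh the most highly expressed genes of a list most. The size of a sum therefore cannot be read as the number of cells of that type, nor a lower sum as their loss. The part of these markers in the levels of the mitosis genes was not tested.

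**Figure D5:**
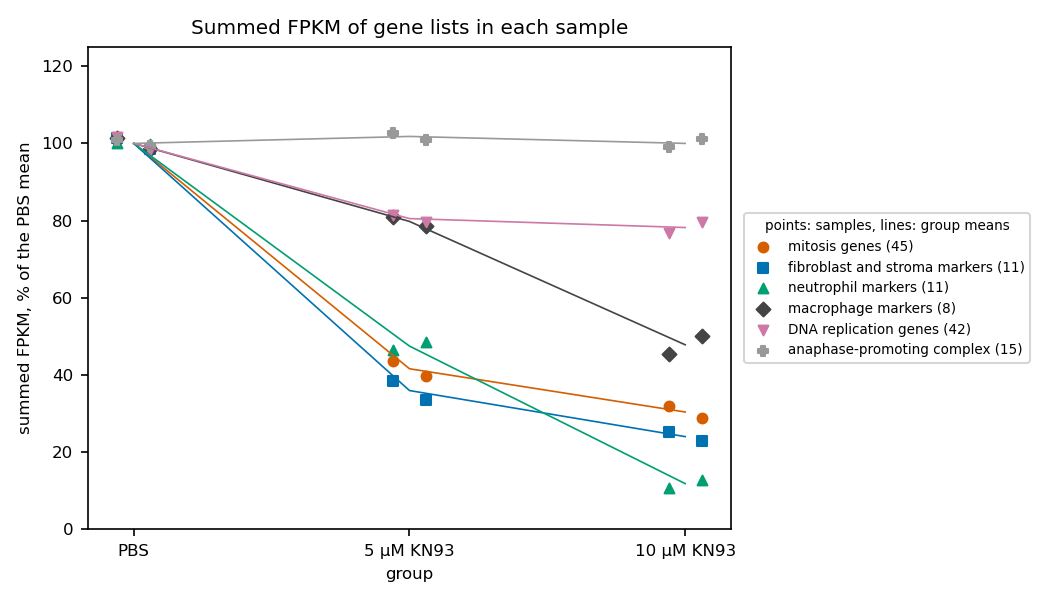
Summed FPKM of gene lists in each sample, as a percentage of the PBS mean of the same list, by group; points are samples and lines join group means. The 45 mitosis genes, the stromal markers and the neutrophil markers fall below 50% at both doses, the macrophage markers end near 48% at 10 µM and the anaphase-promoting complex stays near 100%.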

How the data were processed

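The labels' protocols name TRIzol for the total RNA and a standard Illumina preparation for the libraries. The authors deposited 1 table of FPKM values with a column for each of the 6 samples, and reads had been aligned to GRCm38 by HISAT2, per the submitters' processing notes. Its version, the counter, the gene models and strand setting, and any further scaling were not given in the sources read here. If strand was ignored, overlapping or antisense genes share fragments. No value column was left unused, and the prefix of the column names is explained by no label.

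The 45 genes, the related lists and the markers were chosen with earlier results of these data known. Values entered limma 3.58.1 (R 4.3.3) as log2(FPKM + 1), for genes reaching 1 FPKM in 2 or more samples. The fit took all 6 samples with group as a factor of 3 levels, eBayes with an intensity trend and two-sided tests. It had 3 residual degrees of freedom plus 2.718 from the prior. Calls were made at an adjusted p under 0.05, with Benjamini-Hochberg adjustment over 12722 genes. Exon lengths came from GENCODE M21, an annotation of GRCm38, for 54409 of 54446 entries. With these lengths 98.8% to 99.0% of values of up to 20 fragments were whole multiples of one step per sample, within 0.1 fragment. That gave depths, and fragments for the voom fits, with library sizes set by median-of-ratios. One fragment of a gene with 1000 exon bases was worth 0.0352 to 0.0414 FPKM. The scripts were tested on simulated data.

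The settings varied were the pseudocount (0.1 FPKM), the filter (none, or 0.5 FPKM on average), scaling by median-of-ratios or quantiles, the intensity trend, the samples in the fit, voom on recovered fragments, a replicate block and each sample left out. A negative binomial test of the recovered fragments is not reported, since FPKM are not counts; the voom fit over all genes with at least 10 fragments took its place after its calls had been seen. Besides the 45 genes, the text names from each related list the 3 tested genes with the smallest p at 10 µM against PBS and the first of the opposite direction. Promoters came from a RefSeq table of build GRCm38.p6, matched by symbol. Figures were drawn with matplotlib 3.10.9 in Python 3.11.15.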

Additional observations from a re-analysis of the deposited data

How the results depend on the processing

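The mitosis genes called lower at 5 µM against PBS numbered 37, 33 to 41 under the planned settings and 45 with the added voom fit, which tests all 45; at 10 µM they numbered 38, with a range of 35 to 45. Calls lost at 5 µM under some setting were those of Cdca8, Spc25, Kif20b, Kif23 and Hmmr, and at 10 µM those of Spc25, Kif20b and Mad2l1. Mad2l1 gained the call at 5 µM under 5 settings. No mitosis gene changed direction against PBS under any setting run. Between the doses 10 genes were called: 3 without the filter, 4 with only the groups compared in the fit, 18 with voom, 18 with the added voom fit and 1 to 5 with a sample left out. Over all genes, 3881 were called at 5 µM, and 1897 to 3856 with a sample left out, at most 2135 where it was a PBS or 5 µM sample. Between the doses 2536 were called, 1350 without the filter and 869 to 1922 with a sample left out; 57.37% of these calls were higher, against 45.44% after median-of-ratios scaling. The step difference called 682 genes, 45 without the filter, 1236 with voom, 1141 with the added voom fit and 0 to 239 with a sample left out. Fewer samples or more genes tested enter some of these settings by construction; otherwise the cause was not tested. The replicate numbers follow accession order. Over all 12722 genes tested, same-numbered samples did not deviate together (r = −0.05, 0.01 and 0.04). Among the 45 mitosis genes, replicate 1 was the higher sample for 29 with PBS, 33 at 5 µM and 34 at 10 µM. Whether same-numbered samples share a culture or batch is not given by the labels and cannot be told from these values. With a replicate block, 37 mitosis genes were called lower with 5 µM KN93 than with PBS, and 38 with 10 µM. Between the KN93 groups 7 were. Over all 12722 genes the block called 3409, 6023 and 2079 in that order, counting either direction, and 354 in the step difference. Without the filter, 2859 of all 30856 genes were called for 5 µM against PBS and 5988 for 10 µM. Between the KN93 groups, 1931 of 12722 genes were called with only those groups in the fit. There voom called 3013 of 12717 and the added voom fit 2856 of 21269. The planned edgeR test is not reported, since the values analysed here are FPKM; the added voom fit took its place after its calls had been seen. Depth limits genes with few fragments most.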
